A study of Mus musculus with 9 samples.

Results

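Genes that mark the direct and indirect pathway spiny neurons of the striatum were measured in 9 mouse striatum libraries. The members were 10 genes chosen by name. Drd1, Tac1, Pdyn, Chrm4 and Isl1 stood for the direct pathway, and Drd2, Penk, Adora2a, Gpr6 and Gpr52 for the indirect pathway. By symbol in GENCODE M21 on GRCm38, 9 of the 10 matched a gene ID among the 54532 in the count tables, 5 of the direct and 4 of the indirect set. Gpr52 matched no ID and was not analysed here. All 9 matched members passed the filter on low counts, which left 17821 genes for testing.

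The libraries came from 3 groups of 3. cGAS KO is labelled as lacking the cytosolic DNA sensor cGAS, STING KO as lacking STING, the receptor for the messenger that cGAS makes, and WT as unedited. Both knockouts were produced with CRISPR-Cas9, and the 3 groups shared the C57BL/6J background, the tissue and, by the series' description, an ischemic stroke. The sources used here give no edited exon, founder line, age or time after stroke, and libraries of uninjured animals were not analysed here. The labels do not say that replicates are separate animals, so each p-value reflects the spread among the libraries alone, which may be technical. The targeted genes were at low levels throughout. Cgas was at 0.26 to 1.10 CPM (the count scaled to the TMM-normalized library size) in cGAS KO, 1.05 to 1.55 in STING KO and 1.40 to 3.18 in WT. Tmem173, which encodes STING, was at 1.05 to 2.18 CPM in STING KO, 1.66 to 2.75 in cGAS KO and 1.34 to 4.06 in WT. The STING KO libraries thus overlapped WT in Tmem173, and its level does not check that label.

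Medium spiny neurons are the GABAergic projection neurons that make up most of the striatum. Those of the direct pathway send axons to the substantia nigra and the internal pallidum and carry the D1 dopamine receptor, which raises cAMP, while those of the indirect pathway send axons to the external pallidum and carry the D2 receptor, which lowers cAMP. The classes also differ in their peptides, substance P and dynorphin in the direct pathway and enkephalin in the indirect pathway, and the balance of their markers is a common readout of striatal output.

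Library totals ranged from 14129021 to 21286775 counts, so that a floor of 3 counts was 0.141 to 0.212 CPM. Floors cover counting error only. The lowest count of any member in any library was 80, for Isl1 in WT replicate 3. In each group 1 library stood apart. WT replicate 3 and replicate 2 of each knockout had 2280 to 4723 genes with 1 to 9 counts, against 7096 to 7927 in the other 6. Below, they are the libraries of low complexity, a division made from the data and not from the labels, and results are given with and without them. The biological coefficient of variation was 38.8% over 9 libraries and 17.2% over 6. The shared spiny neuron genes were abundant in every library, with a sum over 15 genes of 8697 to 17102 CPM. The lowest sum was that of WT replicate 3, and the other libraries were at 13768 to 17102. That library also had the highest sum of cortical markers, given below. The sums show striatal RNA in each library and do not measure what other tissue a dissection took in. Adcy5, the adenylyl cyclase that dominates in the striatum, had a level of 2281 ± 412 CPM in cGAS KO, 1978 ± 276 in STING KO and 1738 ± 205 in WT (SD, n = 3), and Pde10a, the striatal phosphodiesterase, one of 2038 ± 450.2, 1994 ± 482 and 1877 ± 173.

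The sequence just upstream of the RefSeq start of 5 members is shown because these genes carry the receptor comparison (Drd1 and Drd2) or hold the letters of the cAMP response element, to which CREB binds at activity-induced genes, in whole or in part (Tac1, Isl1 and Gpr6). Of the 9 measured members 7 had an entry in the RefSeq promoter table for GRCm38.p6, and Penk and Adora2a had none. Each line gives the 150 bases before the start in that RefSeq table, 5′ to 3′ on the gene's strand. This start can differ from that of the GENCODE gene used for the levels. The Tac1 window lies inside the GENCODE gene (7554879 to 7565834), and the Drd1 window overlaps its gene, which ends at 54055705. Capitals mark the element TGACGTCA or its shorter core TGACG, searched on both strands (CGTCA on the other), every full element holding overlapping cores. The windows are chr13:54055659-54055808 (minus strand), chr9:49340253-49340402 (plus), chr6:7554911-7555060 (plus), chr13:116309689-116309838 (minus) and chr10:41072291-41072440 (minus).
Drd1: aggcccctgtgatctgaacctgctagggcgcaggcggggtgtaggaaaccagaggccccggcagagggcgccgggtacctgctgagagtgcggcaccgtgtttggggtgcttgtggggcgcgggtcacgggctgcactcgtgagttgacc
Drd2: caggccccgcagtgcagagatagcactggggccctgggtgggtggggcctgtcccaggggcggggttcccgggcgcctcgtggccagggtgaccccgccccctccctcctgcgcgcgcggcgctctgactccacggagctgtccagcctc
Tac1: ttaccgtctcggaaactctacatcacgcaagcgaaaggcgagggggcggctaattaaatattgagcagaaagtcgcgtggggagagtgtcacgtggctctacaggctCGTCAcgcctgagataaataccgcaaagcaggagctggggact
Isl1: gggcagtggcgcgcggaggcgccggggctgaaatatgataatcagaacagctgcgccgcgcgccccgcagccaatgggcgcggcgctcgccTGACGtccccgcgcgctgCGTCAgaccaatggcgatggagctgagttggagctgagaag
Gpr6: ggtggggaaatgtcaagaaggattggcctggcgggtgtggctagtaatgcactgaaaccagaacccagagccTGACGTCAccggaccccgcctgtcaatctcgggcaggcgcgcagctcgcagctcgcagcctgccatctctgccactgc

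Gpr6 held a full element whose leftmost base was 78 bases before the start. Of all 32851 promoter windows of the same length, 1.36% held the full element and 13.3% the shorter core. Tac1 held 1 core, beginning 43 bases before the RefSeq start and thus inside the GENCODE gene. Isl1 held 2, beginning 59 and 41 bases before its start. The windows of Drd1, Drd2, Pdyn and Chrm4 held none. That of Chrm4, chr2:91922039-91922188 (plus), does not adjoin its GENCODE gene, which starts at 91927249. Of the 7 windows, 0 held TGAGTCA, the AP-1 site, on either strand (TGACTCA on the other), which 2.84% of all windows held. These are matches of letters in a short window and say nothing of binding.

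Levels of different genes were compared per kilobase of merged exons. Over the 6 libraries without low complexity, Penk, the enkephalin precursor, was by far the most abundant member at 596 ± 55.8 CPM per kilobase (SD, n = 6). The dopamine receptor Drd2 was at 112 ± 14.9 and the adenosine receptor Adora2a at 107 ± 10.02, a difference smaller than their spread. Drd1 was at 74.7 ± 10.03 and the muscarinic receptor Chrm4 at 57.1 ± 9.03 CPM per kilobase. The annotation gives Chrm4 a single exon of 1440 bases, so its value per length depends on a short gene model. Gpr6, an orphan receptor that raises cAMP, was at 44.8 ± 3.09 and Tac1, the substance P precursor, at 42.1 ± 6.50, again within their spread. Pdyn, the dynorphin precursor, was at 31.3 ± 4.21 and the transcription factor Isl1 at 3.88 ± 0.53 CPM per kilobase. Over all 9 libraries the order was the same, with Penk at 458 ± 216 and Drd2 at 108 ± 27.6 CPM per kilobase (SD, n = 9).

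Values below are TMM-normalized CPM, with replicates 1, 2 and 3 in that order, and the plot of levels by library shows them all. Penk (ENSMUSG00000045573), which lies on the minus strand of chromosome 4 of GRCm38 from 4133531 to 4138819, had 1021, 407 and 961 CPM in cGAS KO, 1032, 336 and 863 in STING KO, and 1091, 875 and 146 in WT. The 3 lowest values belonged to the 3 libraries of low complexity, and the other 6 overlapped across genotypes between 863 and 1091 CPM. An antisense transcript, A830012C17Rik, covers 14.3% of the exon bases of Penk but had 46 counts over all libraries against 117050 for Penk.

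**Figure D1:**
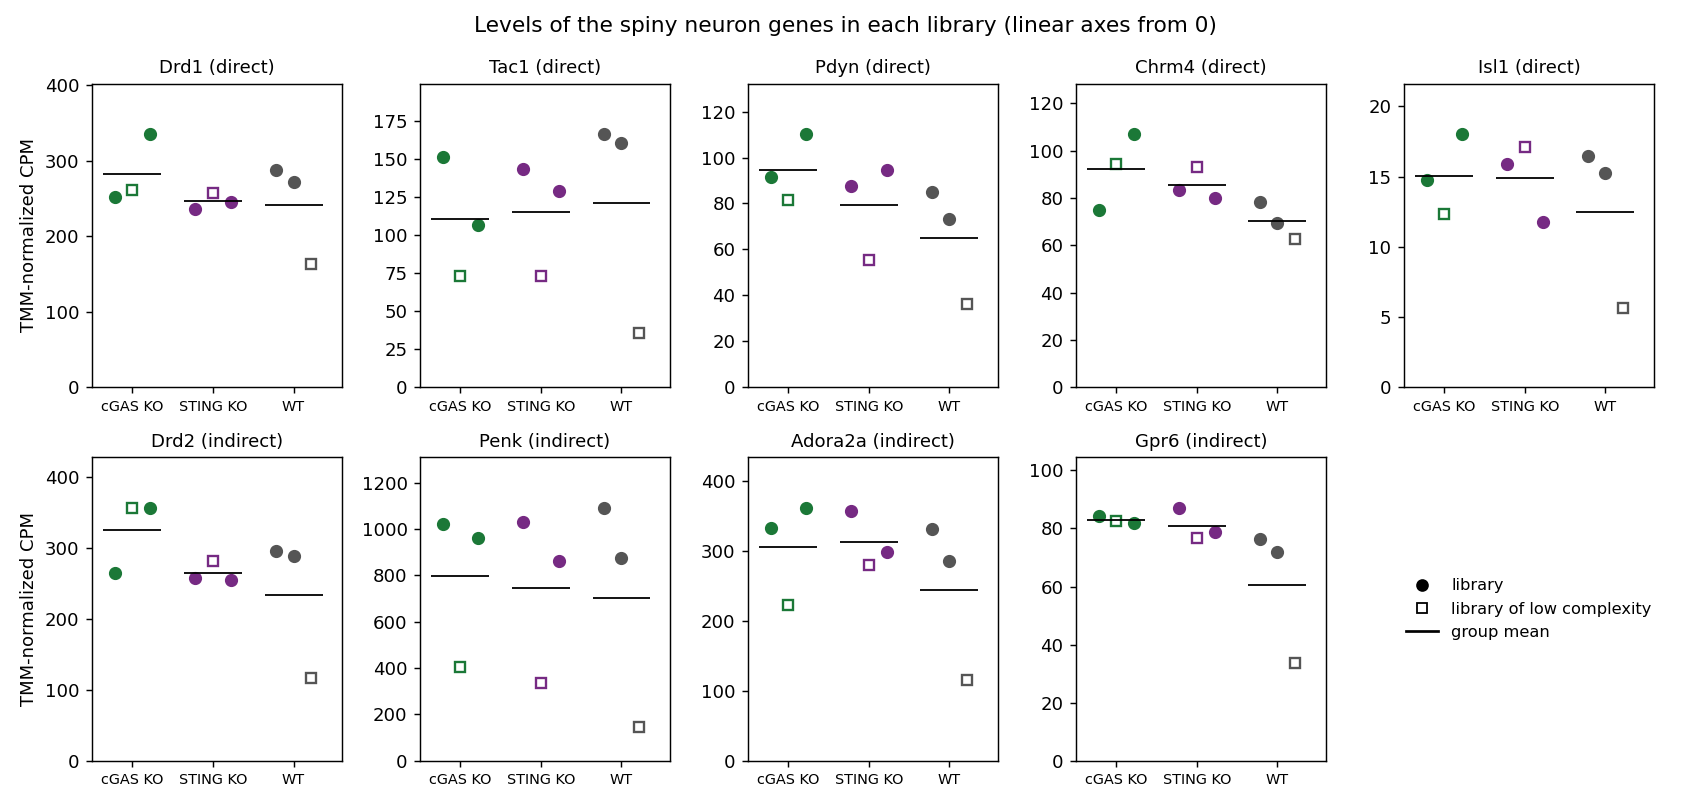
Levels of the 9 measured members in TMM-normalized CPM (vertical axes, linear from 0) for the 3 libraries of each genotype, with group means as bars and the libraries of low complexity as open squares. WT replicate 3 is the lowest point in every panel, and Penk and Tac1 are lowest in all 3 libraries of low complexity.

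Tac1 (ENSMUSG00000061762, chromosome 6, 7554879 to 7565834) was at 151, 73.4 and 107 CPM in cGAS KO, at 144, 72.9 and 129 in STING KO, and at 167, 161 and 35.7 in WT. Pdyn (ENSMUSG00000027400, chromosome 2, 129686565 to 129699844) was at 91.7, 81.4 and 110.2, at 87.6, 55.5 and 94.6, and at 85.2, 73.2 and 36.4 CPM in the same groups. As for Penk, the lowest value in each group was that of the low-complexity library, although the cGAS KO value of Pdyn lay within the range of the other 6.

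Among the dopamine receptors, Drd1 (ENSMUSG00000021478, chromosome 13, 54051183 to 54055705) was at 251, 261 and 335 CPM in cGAS KO, at 236, 258 and 245 in STING KO, and at 287, 272 and 163 in WT. Drd2 (ENSMUSG00000032259, chromosome 9, 49340627 to 49408177) was at 264, 356 and 356, at 258, 281 and 255, and at 295, 289 and 117 CPM. For both receptors only WT replicate 3 lay below the rest, and the low-complexity libraries of the knockouts were not low. Drd2 is also made by cholinergic interneurons, whose markers Slc5a7 and Chat were at 37.6 ± 9.65 and 14.9 ± 4.55 CPM in cGAS KO, 38.6 ± 13.02 and 17.4 ± 2.50 in STING KO, and 44.4 ± 3.91 and 17.4 ± 8.34 in WT.

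The other receptors differed in how they varied. Adora2a (ENSMUSG00000020178, chromosome 10, 75316877 to 75334784) was at 333, 223 and 362 CPM in cGAS KO, at 358, 281 and 299 in STING KO, and at 331, 286 and 116 in WT. Gpr6 (ENSMUSG00000046922, chromosome 10, 41069977 to 41072285) was at 84.2, 82.7 and 81.8, at 87.1, 76.6 and 78.9, and at 76.4, 71.7 and 33.5 CPM. Each Gpr6 value of either knockout was above each WT value, by as little as 76.6 against 76.4 CPM for STING KO. Chrm4 (ENSMUSG00000040495, chromosome 2, 91927249 to 91928688), which lowers cAMP in direct pathway neurons, was at 75.0, 94.5 and 107 CPM in cGAS KO, at 83.4, 93.3 and 80.1 in STING KO, and at 78.4, 69.5 and 62.5 in WT. Here too each STING KO library exceeded each WT library, while cGAS KO overlapped WT. Isl1 (ENSMUSG00000042258, chromosome 13, 116298281 to 116309689), a factor of direct pathway and cholinergic neurons, was at 14.7, 12.3 and 18.0, at 15.9, 17.1 and 11.7, and at 16.5, 15.3 and 5.66 CPM, with every knockout value above that of WT replicate 3.

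No member differed between cGAS KO and WT beyond the spread of the libraries. Of 9 members edgeR called 0, as it called 0% of all 17821 genes, and 0 members had an unadjusted p under 0.05 against 361 of all genes. DESeq2 called 0 members and 1 gene, 0.00561% of those tested, and edgeR with no count filter called 0% of genes. Fold changes were positive for 8 of 9 members, with a median log2 of 0.32 against -0.01 over all genes tested. Chrm4 had the smallest p (log2 fold change 0.39, SE 0.18, 95% interval -0.01 to 0.79, edgeR unadjusted p = 0.0536, adjusted p = 0.9999). The log2 fold change was 0.54 for Pdyn (interval -0.17 to 1.25), 0.48 for Drd2 (-0.24 to 1.19), 0.45 for Gpr6 (-0.16 to 1.06) and 0.23 for Drd1 (-0.29 to 0.75). For Penk it was 0.18 with an interval of -1.33 to 1.69, which takes in changes of more than 2-fold either way. Only Gpr6 had 3 libraries above the 3 of WT, 1 of 9 members against 4.00% of all genes, and 0 members lay below (4.00% of all genes).

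Without the 3 libraries of low complexity the median of the members in cGAS KO against WT was 0.09, and 0 were called (0% of 17657 genes). Pdyn had the only unadjusted p under 0.05 (log2 fold change 0.35, interval 0.01 to 0.69, edgeR unadjusted p = 0.0431, adjusted p = 0.971), with 91.7 and 110.2 CPM in the 2 cGAS KO libraries left and 85.2 and 73.2 in the 2 of WT. Tac1, the other direct pathway peptide precursor, had a log2 fold change of -0.34 (interval -0.74 to 0.06), and Penk of 0.01 (interval -0.40 to 0.42). The ratio of Pdyn to Tac1 was -0.72 and 0.04 in those 2 cGAS KO libraries and -0.97 and -1.13 in those 2 WT libraries, as a difference of log2 CPM. In cGAS KO replicate 2 it was 0.15 and in WT replicate 3 it was 0.03, so that over all libraries the groups overlapped.

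**Figure D2:**
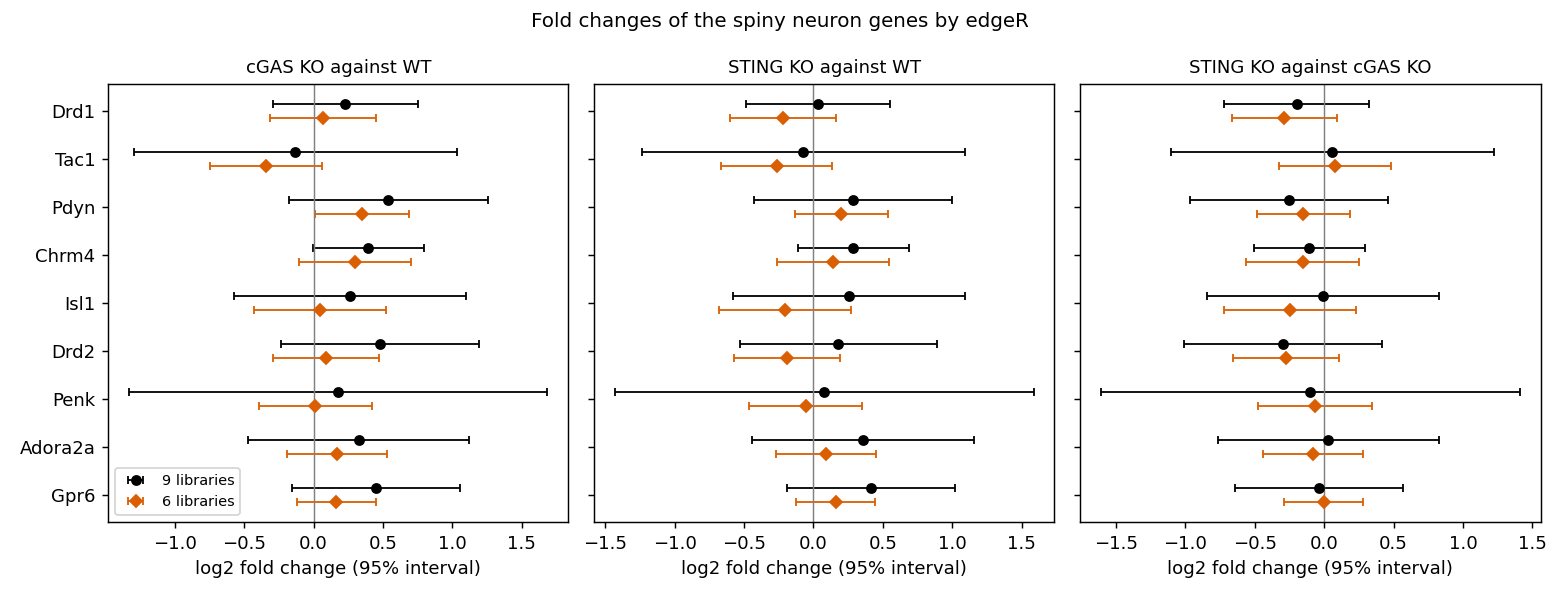
Log2 fold changes of the 9 members by edgeR in the 3 comparisons (horizontal axes), with 95% intervals, over 9 libraries (black circles) and over the 6 without low complexity (orange diamonds). The intervals of Penk and Tac1 are the widest over 9 libraries and narrow over 6, and of the intervals drawn only that of Pdyn in cGAS KO against WT over 6 libraries excludes 0.

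STING KO and WT likewise did not differ in any member by edgeR (0 of 9, with 0% of all 17821 genes called, and 0 members but 291 genes with an unadjusted p under 0.05). DESeq2 called 0 members and 0.0561% of genes, and edgeR with no count filter 0 members and 0.0125%. Fold changes were positive for 8 of 9 members with a median log2 of 0.25, against 0.00 over all genes. Gpr6 had the largest, 0.42 (SE 0.27, interval -0.19 to 1.02), followed by Adora2a at 0.36 (interval -0.44 to 1.15), Chrm4 at 0.29 (interval -0.11 to 0.69) and Pdyn at 0.29 (interval -0.43 to 0.999). Drd1 was at 0.03 (interval -0.49 to 0.55) and Drd2 at 0.18 (interval -0.53 to 0.89). Chrm4 and Gpr6 had no overlap with WT on the higher side, 2 of 9 members against 3.40% of all genes, and 0 members on the lower side (3.67%). Both rest on closely spaced values, and the edgeR adjusted p was 0.9999 for each. Without the libraries of low complexity the median was -0.05, with 4 members positive and 5 negative and 0 called (0.0227% of genes called). The negative values were -0.26 for Tac1, -0.22 for Drd1, -0.20 for Isl1, -0.19 for Drd2 and -0.05 for Penk, and the intervals of all 9 members included 0. By edgeR 1219 of all 17657 genes had an unadjusted p under 0.05 in this fit.

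Between the knockouts, edgeR called 0 of 9 members (0% of genes), and 0 members had an unadjusted p under 0.05, against 258 of all genes. DESeq2 called 0 members and 0.0505% of genes, and edgeR with no count filter 0 members and 0.0125%. The median log2 fold change of STING KO against cGAS KO was -0.10. Drd2 had the largest difference at -0.30 (interval -1.01 to 0.41), from 265 ± 14.4 CPM in STING KO and 325 ± 53.0 in cGAS KO, and Drd1 was at -0.20 (interval -0.72 to 0.32). In both receptors 1 library, cGAS KO replicate 3, was high, joined for Drd2 by cGAS KO replicate 2. No member separated the knockouts without overlap, against 3.63% of all genes on the higher side and 3.72% on the lower. Over 6 libraries 8 of 9 members were negative with a median of -0.15, and 0 were called (0.0170% of genes). The comparisons share libraries in pairs and are not independent of each other.

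The ratio of the direct to the indirect set was taken per library as the mean log2 CPM of the 5 direct members minus that of the 4 indirect members. Its absolute size depends on which genes are in each set, so only differences between libraries are read, and no p is given for it. It was -1.83, -1.67 and -1.74 in cGAS KO, -1.86, -1.60 and -1.79 in STING KO, and -1.77, -1.73 and -1.26 in WT. The 3 libraries of low complexity, at -1.67, -1.60 and -1.26, all lay above the other 6, which spanned -1.86 to -1.73, and WT replicate 3 was the highest, with relatively more of the direct set. Group means were -1.75 ± 0.08 in cGAS KO, -1.75 ± 0.13 in STING KO and -1.59 ± 0.29 in WT (SD, n = 3). The difference from WT was -0.16 for either knockout, and without WT replicate 3 alone it was 0.00 for either. Without all 3 libraries of low complexity the means were -1.79 in cGAS KO, -1.82 in STING KO and -1.75 in WT. The place of the low-complexity libraries depended on how the ratio was formed. By summed CPM they again lay above the other 6 (-1.03 to -0.44 against -1.61 to -1.36). By medians over members they lay within them (-1.95 to -1.67 against -1.97 to -1.54). Without the peptide precursors cGAS KO replicate 2, at -1.47, lay within the -1.57 to -1.34 of the 6. Without Isl1, Chrm4 and Drd2, STING KO replicate 2, at -0.93, lay within -1.15 to -0.83.

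In CPM, which is not scaled for gene length, the receptor pair was close to even in most libraries. Per kilobase of merged exons the pair was not even. With the low-complexity libraries left out, Drd2 had a mean of 112 CPM per kilobase and Drd1 one of 74.7. The values below are therefore read only as differences between libraries. Drd1 minus Drd2 in log2 CPM was -0.07, -0.45 and -0.09 in cGAS KO, -0.13, -0.13 and -0.05 in STING KO, and -0.04, -0.09 and 0.48 in WT. The 6 libraries without low complexity spanned -0.13 to -0.04 across the 3 genotypes, while all 9 spanned -0.45 to 0.48, a wider range than that of the set ratio. The low-complexity libraries went both ways, toward Drd2 in cGAS KO replicate 2 and toward Drd1 in WT replicate 3, and STING KO replicate 2 lay with the other 6. The peptide pair varied more: Tac1 minus Penk was -2.75, -2.47 and -3.17 in cGAS KO, -2.84, -2.20 and -2.74 in STING KO, and -2.71, -2.44 and -2.03 in WT.

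**Figure D3:**
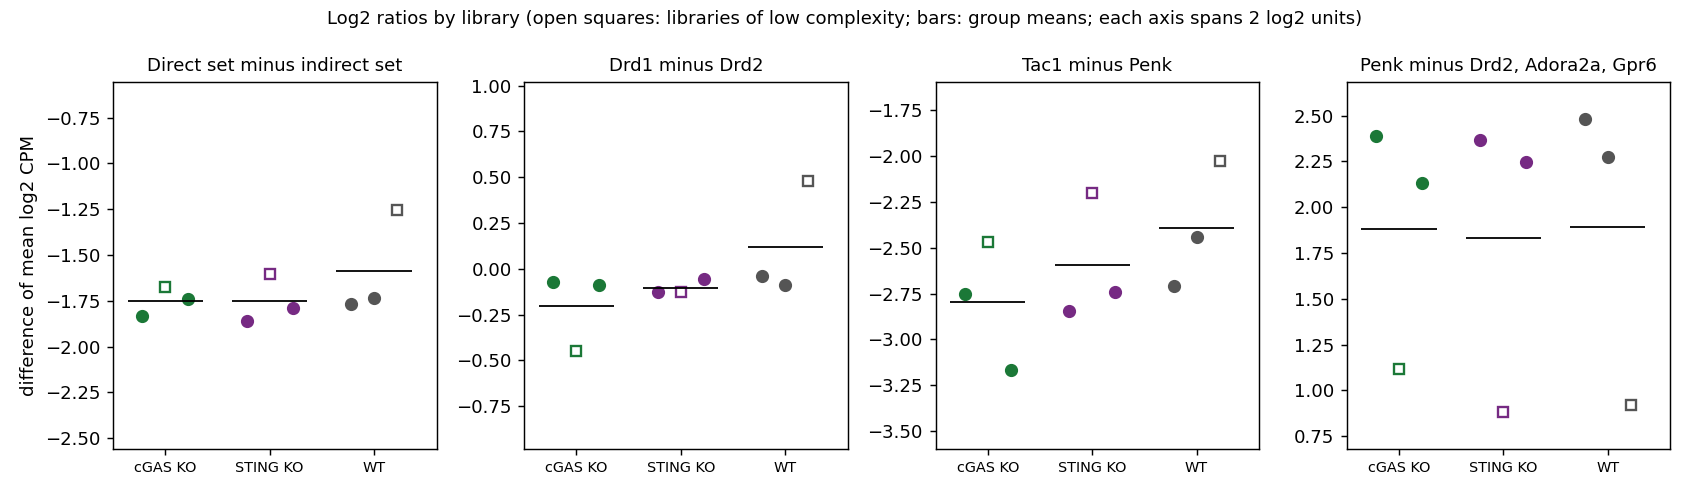
Log2 ratios per library: the direct minus the indirect set, Drd1 minus Drd2, Tac1 minus Penk, and Penk minus the mean of Drd2, Adora2a and Gpr6 (vertical axes, difference of mean log2 CPM, each spanning 2 units), with group means as bars and libraries of low complexity as open squares. The set ratio, as means over members, sits between -1.86 and -1.73 in the 6 libraries without low complexity and between -1.67 and -1.26 in the 3 open squares. By medians over members the open squares lie within the other 6. The last panel separates the 3 open squares (0.88 to 1.12) from the other 6 libraries (2.13 to 2.48).

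The peptide precursors were lower relative to the receptors of the same pathway in the libraries of low complexity. Penk minus the mean of the indirect receptors Drd2, Adora2a and Gpr6 was 2.13 to 2.48 log2 units in the 6 libraries without low complexity, and 1.12, 0.88 and 0.92 in the low-complexity libraries of cGAS KO, STING KO and WT. Tac1 and Pdyn minus Drd1 and Chrm4 in the direct pathway was -0.80 to -0.22 in the 6 and -1.02, -1.28 and -1.49 in those 3. These libraries were grouped from the data, so the differences are a description. Against the mean of the other 2 libraries of its group, Penk was 2.44-fold lower in cGAS KO replicate 2, 2.81-fold lower in STING KO replicate 2 and 6.70-fold lower in WT replicate 3. Tac1 was 1.73-fold, 1.87-fold and 4.58-fold lower, and Pdyn 1.23-fold, 1.64-fold and 2.17-fold lower. Among the receptors, the log2 gap of Adora2a was also below 0 in all 3 groups, at -0.64, -0.22 and -1.41 in cGAS KO, STING KO and WT. That of Drd2 was 0.22, 0.13 and -1.32, that of Drd1 -0.15, 0.10 and -0.78, that of Gpr6 -0.00425, -0.11 and -1.14, and that of Chrm4 0.08, 0.19 and -0.24. The median gene differed by -0.01, -0.06 and -0.05 log2 units in the 3 groups. For Penk 6.64%, 10.9% and 2.22% of the tested genes had a larger deficit. A deficit of this size was not particular to the peptide precursors. Ppp1r1b, one of the 15 shared spiny neuron genes, had gaps of -1.02, -1.41 and -2.64. It was at 200 to 656 CPM in the 3 libraries of low complexity and at 1108 to 1439 in the other 6. Of the 15 shared genes, 9, 5 and 14 had a gap below 0 in cGAS KO, STING KO and WT.

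Tac1, Penk and Adora2a had lower values in all 3 low-complexity libraries than in any of the other 6, which is 3 of 9 members where 16.5% of all genes did so. For Adora2a the margin was small, with 281 CPM at most in the 3 and 286 at least in the 6.

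**Figure D4:**
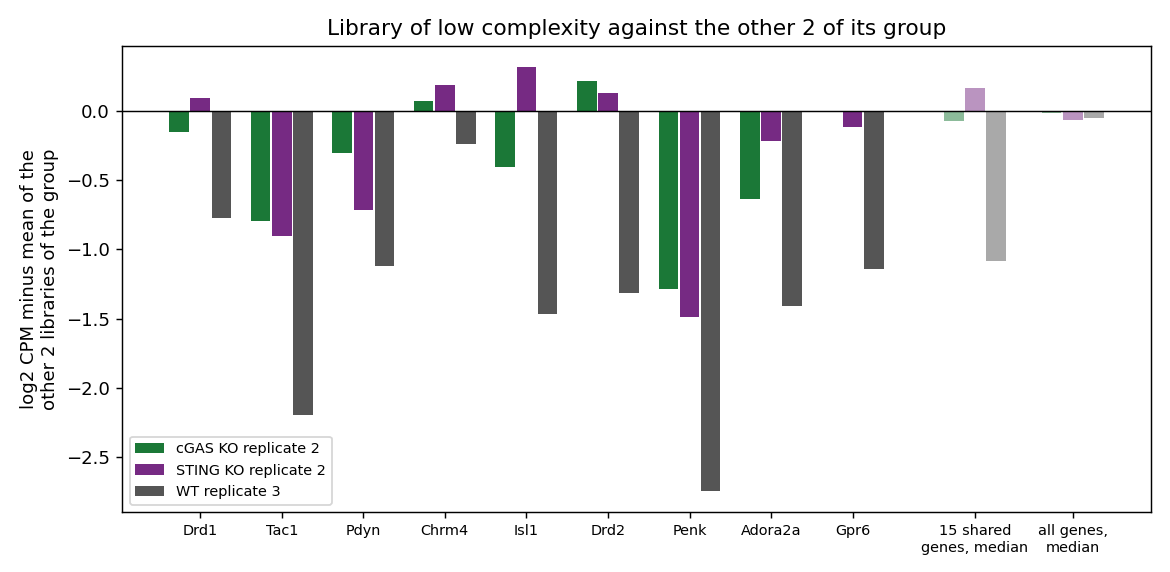
Log2 CPM of the library of low complexity minus the mean of the other 2 libraries of its group (vertical axis) for each member, with the median over 15 shared spiny neuron genes and over all tested genes in paler bars. Penk and Tac1 are below 0 in all 3 groups, and the receptors are far below 0 mainly in WT replicate 3.

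WT replicate 3 had less of every member than the mean of the other WT libraries, 9 of 9, with log2 gaps from -0.24 for Chrm4 to -2.74 for Penk. The 15 shared spiny neuron genes were lower there too, 14 of 15 with a median of -1.09, while in the low-complexity libraries of cGAS KO and STING KO their medians were -0.07 and 0.17. Markers of other cells were lower in WT replicate 3 as well: oligodendrocyte markers in 5 of 5 cases (median gap -1.06), cholinergic interneuron markers in 5 of 5 (median -1.24) and other interneuron markers in 6 of 7 (median -1.06). Cortical glutamatergic neuron markers were higher there, 9 of 9 with a median gap of 1.98. They were also higher in 9 of 9 cases in cGAS KO replicate 2 (median 1.42) and lower in 7 of 9 in STING KO replicate 2 (median -1.09). In WT replicate 3 their sum was 1248 CPM, against 112 and 485 in WT replicates 1 and 2. Their summed level was 146 to 569 CPM in cGAS KO and 338 to 683 in STING KO, and 0 of the 9 markers were at 0 in any library. Slc17a7, the cortical vesicular glutamate transporter, was at 823 CPM in WT replicate 3 and 47.3 to 487 elsewhere. Choroid plexus markers summed to 2746 CPM in WT replicate 1 and 26.9 to 492 elsewhere, and that library had the highest values of Penk and Tac1. The part of these other cells in the member levels was not tested, and in bulk tissue fewer cells of a type and less RNA per cell cannot be told apart.

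Set against the shared spiny neuron genes of the same library, the members differed in how WT replicate 3 compared with the rest. Drd1 minus the mean log2 CPM of the 15 genes was -1.37 there, within the -1.61 to -1.35 of the other 8 libraries, and Chrm4 was at -2.75, above the -3.39 to -3.00 of the others. Drd2 was at -1.85 against -1.48 to -1.10 in the others, Adora2a at -1.86 against -1.77 to -1.01, and Gpr6 at -3.64 against -3.39 to -3.05. Each of these 3 indirect members was thus lower than in any other library on this scale, as were Penk at -1.53 and the direct pathway members Tac1 at -3.56 and Isl1 at -6.19. Pdyn at -3.53 was not, since STING KO replicate 2 had -3.80. With all libraries scaled to the shared genes in the edgeR fit, 0 members were called in any comparison, as were 0 of all 17821 genes. The median log2 fold change against WT was then 0.04 for the direct and 0.17 for the indirect set in cGAS KO, and 0.03 and 0.16 in STING KO. This scaling moved the median of all genes to -0.36 in cGAS KO and -0.27 in STING KO.

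**Figure D5:**
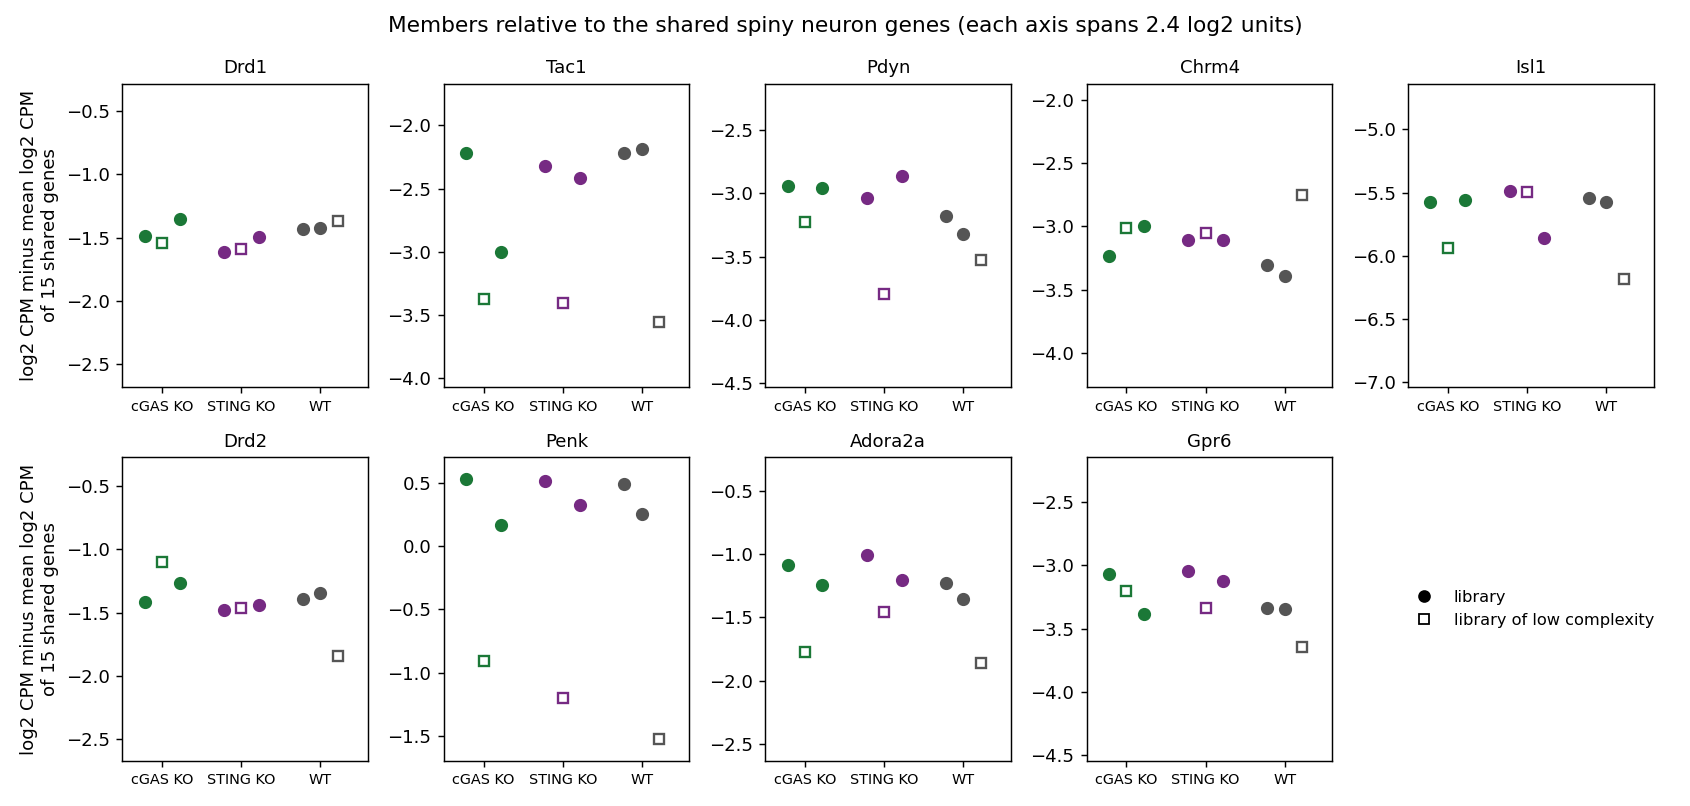
Log2 CPM of each member minus the mean log2 CPM of 15 shared spiny neuron genes in the same library (vertical axes, each spanning 2.4 units), with libraries of low complexity as open squares. Drd1 stays within -1.61 to -1.35 in all 9 libraries, while Penk spans -1.53 to 0.53.

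Other genes of the 2 pathways gave no call either. Of 5 further direct pathway genes, 3 had a positive fold change against WT in cGAS KO and 2 in STING KO, with medians of 0.23 and -0.13 and 0 called. Of 6 further indirect pathway genes, 5 and 4 were positive with medians of 0.18 and 0.25, and 0 were called. Sfxn1, a mitochondrial serine transporter of direct pathway neurons, was at 71.8 ± 5.06 CPM in cGAS KO, 67.2 ± 4.00 in STING KO and 73.3 ± 6.43 in WT (SD, n = 3), and Slc35d3 at 42.7 ± 3.41, 43.5 ± 12.4 and 31.0 ± 13.1. In the indirect set, Gucy1a1, a subunit of soluble guanylate cyclase, was at 170 ± 34.5, 156 ± 21.1 and 157 ± 3.04, and the kainate receptor Grik3 at 127 ± 19.1, 125 ± 16.4 and 125 ± 27.5. With these genes in place of the members, the direct to indirect ratio was -0.71 to -0.28 in the 6 libraries without low complexity and -0.50 in WT replicate 3, which lay within their range, while STING KO replicate 2 was the lowest at -1.03. Its mean was -0.80 ± 0.19 in STING KO, -0.49 ± 0.18 in cGAS KO and -0.42 ± 0.12 in WT (SD, n = 3), a difference of -0.38 for STING KO against WT, larger than the -0.16 of the members, and of -0.07 for cGAS KO against WT. The 3 STING KO values, -0.68, -1.03 and -0.71, lay below the 3 of WT, -0.47, -0.28 and -0.50, and overlapped those of cGAS KO, -0.70, -0.39 and -0.38.

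The 15 shared spiny neuron genes were positive in 15 of 15 cases in either knockout against WT, with medians of 0.27 and 0.15 and 0 called, and over 6 libraries in 10 of 15 (median 0.06) and 3 of 15 (median -0.11). Relatives of the member receptors, such as Chrm1 at 175 ± 12.1, 163 ± 24.3 and 149 ± 10.3 CPM and Adora1 at 161 ± 51.7, 153 ± 41.2 and 147 ± 50.04 in cGAS KO, STING KO and WT, were positive in 8 of 12 and 7 of 12 cases, with 0 called. Among receptors for the member peptides, Oprk1, which binds dynorphin, was at 54.4 ± 11.6, 47.1 ± 13.03 and 56.2 ± 15.7 CPM, and Oprd1, which binds enkephalin, at 38.6 ± 13.1, 37.8 ± 16.4 and 37.4 ± 13.8. Of the 5 tested, 3 and 4 were positive and 0 were called. Other opioid and tachykinin precursors were near absent beside the members, with Pnoc at 1.62 ± 1.93, 1.02 ± 0.24 and 1.64 ± 1.37 CPM and Pomc at 0.62 ± 0.71, 1.07 ± 0.76 and 0.68 ± 0.46.

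Compartments and regions of the striatum were followed with further lists. Striosome genes, which mark the patches where Pdyn neurons are dense, were positive for 3 of 6 members in cGAS KO and 5 of 6 in STING KO against WT, with medians of 0.08 and 0.15, and 0 were called. Nnat was at 107 ± 1.52, 103 ± 23.4 and 62.7 ± 19.5 CPM and Tshz1 at 93.8 ± 44.3, 78.8 ± 32.2 and 68.8 ± 21.3. Of 5 matrix genes, 4 and 3 were positive with medians of 0.27 and 0.01, and 0 were called. Rasgrp2 was at 305 ± 19.0, 314 ± 26.02 and 253 ± 102 CPM and Id4 at 312 ± 41.6, 266 ± 29.4 and 219 ± 17.3. Of 4 ventral striatum genes, 3 were positive in each, with medians of 1.18 and 0.81 and 0 called. These medians depend on Drd3, at 0.16 to 3.14 CPM over the libraries, and Cartpt, at 0 to 3.855, which reached the floor in some libraries. Dlk1 was at 18.4 ± 5.85, 9.07 ± 4.06 and 8.79 ± 0.61 CPM and Nts at 4.99 ± 1.19, 3.76 ± 0.52 and 6.48 ± 2.14.

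Transcription of Pdyn, Tac1 and Penk is known to follow neuronal activity, so genes induced by activity were set beside them. Of 9 such genes, all were positive in STING KO against WT with a median log2 fold change of 1.48. By edgeR 8 had an unadjusted p under 0.05, against 291 of all 17821 genes. Over 9 libraries edgeR called 0 of them (0% of all genes), and over 6 it called 2, Arc and Junb (0.0227% of all genes). In cGAS KO against WT, 7 of the 9 were positive with a median of 0.49, and 0 were called over 9 or over 6 libraries. Between the knockouts, STING KO against cGAS KO, all 9 were positive with a median of 0.93. There 5 had an edgeR unadjusted p under 0.05, against 258 of all genes. Over 9 libraries 0 of the 9 were called (0% of all genes), and over 6 libraries 1 was (0.0170% of all genes). Arc had 356, 136 and 289 CPM in the STING KO libraries, against 75.8 to 97.3 in those of WT, and Egr1 at 475 ± 158 and 250 ± 74.2. Over the same 6 libraries, Arc rose by a log2 fold change of 1.90 (edgeR adjusted p = 0.0283, with 0.9999 over 9 libraries), whereas Pdyn had 0.20 (interval -0.14 to 0.54), Tac1 -0.26 (interval -0.67 to 0.14) and Penk -0.05 (interval -0.46 to 0.35), none of them called. These fits set 2 libraries against 2, left after a division made from the data. Whether the precursors shared the difference of the activity-induced genes was not tested.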

How the data were processed

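Polyadenylated RNA of the striatum was sequenced as paired reads, per the labels' protocols. HISAT2, featureCounts and the mm10 build are named, without versions, in the submitters' processing notes. The annotation release, strand setting and handling of multi-mapped reads were not stated in those notes. Each deposited file holds raw counts, whole numbers per Ensembl gene. Of 54532 IDs, 54495 matched GENCODE M21.

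The main test was that of edgeR 4.0.16, run in R 4.3.3 (quasi-likelihood F test, TMM factors, filterByExpr, all 9 libraries in 1 fit). Adjusted p-values are Benjamini-Hochberg over 17821 genes, with a threshold of 0.05. The SE is the log2 fold change over the root of F, and 95% intervals use the t distribution with the fit's degrees of freedom. Log2 CPM used a prior count of 2. DESeq2 1.42.0 was an alternative, on the same genes. The methods were tested on simulated data.

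The members and lists were chosen with earlier results of these data known, as was the choice of the libraries of low complexity. Named are all members and the 2 most abundant genes of a list, or fewer, and the genes most like Drd1 and Drd2. The neuropeptide precursors Npy, Cartpt and Tac2 and the processing genes other than Cpe were chosen after their values were seen, as were Junb, Ppp1r1b and Drd3. Groups and replicate numbers come from sample titles.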

Additional observations from a re-analysis of the deposited data

How the results depend on the processing

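In all 27 fold changes of members, 0 were called under any of the alternatives run. Over the 7 alternatives other than leaving out 1 library, 177 of 189 values kept their direction and 12 did not. Without the low-complexity libraries, values in STING KO against WT turned to -0.22 for Drd1, -0.20 for Isl1, -0.19 for Drd2 and -0.05 for Penk (-0.0546), and Adora2a in STING KO against cGAS KO to -0.08 (-0.0826). Scaled to the shared spiny neuron genes, Drd1 turned to -0.05 (-0.0535) in cGAS KO and -0.15 in STING KO against WT, and between the knockouts Isl1 turned to 0.08 (0.0752), Penk to 0.01 (0.00681) and Gpr6 to 0.05 (0.0486). With only the 6 libraries compared, Isl1 in STING KO against cGAS KO was 0.00128. With the replicate number as a block, Tac1 in STING KO against WT was 0.00671, and 0 genes were called in any comparison, as without it. Of 9 same-numbered pairs, 4 had a correlation of deviations over 0.1 (range -0.447 to 0.502). The libraries of low complexity, which do not all share a number, correlated with each other at 0.469 to 0.533. The check thus cannot tell whether the numbers pair the libraries.

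Genes called over the whole table numbered 1 in cGAS KO against WT with DESeq2, 4 in STING KO against WT without a count filter, 10 with DESeq2 and 4 without the low-complexity libraries, and between the knockouts 4, 9 and 3. The ratio difference was 0.10 (0.0975) in cGAS KO and 0.08 (0.0786) in STING KO against WT with medians over members, and with the further pathway genes -0.31 in STING KO against cGAS KO and -0.38 in STING KO against WT.

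Leaving out 1 library at a time, 29 of 243 member values changed sign. In cGAS KO against WT the ranges were -0.57 to 0.17 for Tac1, -0.30 to 0.64 for Penk, -0.08 (-0.0801) to 0.52 for Isl1 and -0.01 (-0.0135) to 0.61 for Adora2a. In STING KO against WT they were -0.51 to 0.23 for Tac1, -0.40 to 0.54 for Penk, -0.19 to 0.18 for Drd1, -0.14 (-0.145) to 0.39 for Drd2, -0.09 (-0.0942) to 0.51 for Isl1 and -0.00169 to 0.54 for Pdyn. In STING KO against cGAS KO they were -0.17 to 0.36 for Tac1, -0.42 to 0.25 for Penk, -0.16 to 0.17 for Adora2a, -0.23 to 0.01 (0.0143) for Chrm4, -0.14 to 0.14 for Isl1 and -0.10 (-0.0960) to 0.00432 for Gpr6. The cause of these changes was not tested. With 3 libraries a group and this spread, the intervals of Penk and Tac1 reached past 1 log2 unit on both sides over 9 libraries in each comparison.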

Other observations

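Other neuropeptide genes differed in their levels in the libraries of low complexity. Sst, the somatostatin precursor of interneurons, was at 10.7 to 21.7 CPM in those 3 libraries and at 16.2 to 127 in the other 6, and Npy at 2.30 to 5.38 against 5.18 to 36.9, with overlap in both. The log2 gap to the other 2 libraries of the group was -1.77, -3.36 and -1.97 for Sst in cGAS KO, STING KO and WT, and -0.55, 0.24 and -0.91 for Nts. Nos1, the most abundant gene of the interneuron list that holds Sst and Npy, went the other way, with gaps of 0.56, 0.49 and 0.66. In each group 6 of the 7 genes of that list had a gap below 0. Cartpt, at very low levels, was at 0 to 0.42 CPM in the 3 libraries against 0.59 to 3.855 in the other 6. Pomc and Tac2, at very low levels, had gaps of 1.31 and 0.62 in WT replicate 3 and of -2.95 and -0.51 in cGAS KO replicate 2. In STING KO replicate 2 their gaps were -2.30 and -3.70. Pnoc, also at very low levels, had gaps of -0.49, -0.52 and -2.85 in cGAS KO, STING KO and WT. Of the enzymes and helpers that process peptide precursors, Pcsk1n, an inhibitor of a prohormone convertase, was at 47.4 to 83.9 CPM against 262 to 683, Scg5 at 35.4 to 41.0 against 77.2 to 121.8, and Cpe, carboxypeptidase E, at 711 to 837 against 1632 to 1915. The convertase Pcsk2, at 297 to 345 against 288 to 356 CPM, and the amidating enzyme Pam, at 137 to 207 against 142 to 231, overlapped. The convertase Pcsk1 tended the other way, at 22.2 to 53.7 CPM against 13.9 to 25.043, with gaps of 0.94, -0.09 and 1.66 in cGAS KO, STING KO and WT. In 16.5% of all tested genes the 3 libraries lay below the other 6 without overlap and in 14.3% above.

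The genes whose log2 CPM followed Drd1 most closely over the 9 libraries were Ankrd40 (Pearson r = 0.975), Klhl13 (0.971) and Calu (0.970), and for Drd2 they were Htr1b, a serotonin receptor (0.989), Mir208b (0.988) and Mkrn2 (0.988). Over the 6 libraries without low complexity they were Tfdp2 (0.999), Cacng4 (0.995) and Lamc1 (0.994) for Drd1, and Thap12, Slc30a10 and Sft2d2 (0.997, 0.997 and 0.995) for Drd2, so 0 genes were shared between the lists of 9 and of 6. With so few libraries and 17821 genes these are descriptions only.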
